A study of Trametes cinnabarina with 16 samples.

Results

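In the white-rot fungus Pycnoporus cinnabarinus, also named Trametes cinnabarina, 134 of 27990 assembled genes were high in every library grown on poplar or switchgrass and low in the libraries without a plant substrate. They were selected on those levels. A gene was taken when its lowest value over the 3 poplar and 3 switchgrass libraries was at least 10 TPM and at least 4 times its highest value over 9 others. TPM corrects abundance for transcript length, and the values of a library total 1000000. The 9 others were the 3 control, 3 cellobiose and 1 glucose library and the maltose libraries 1 and 2. The library maltose 3 played no part in the choice. The height of these genes on plant material is therefore how they were found, and it is described without a test.

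White-rot fungi live on plant cell walls and can break down lignin as well as the polysaccharides cellulose and hemicellulose. They do so largely with enzymes secreted outside the cell, and many of these are made in large amounts only on suitable substrates. Cellobiose is the disaccharide released from cellulose, and maltose is the disaccharide released from starch. Poplar is a hardwood tree and switchgrass is a grass, so both offer whole cell walls rather than a soluble sugar.

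The 16 libraries came from whole cultures of strain PB94 on a semi-minimal medium, which had no energy substrate in the control group and cellobiose, glucose, maltose, poplar or switchgrass in the other groups. Each group had 3 libraries, except glucose, which had 1. The control and soluble-sugar libraries were made with a stranded poly-A mRNA kit, while ribosomal RNA was removed with a yeast depletion kit for poplar and switchgrass. The substrate and the preparation cannot be told apart in any comparison of a plant group with another group, and that difference runs through the choice of all 134 genes. The labels do not say whether replicates came from separate cultures, and the spread behind each p-value may be technical. In material from whole cultures, fewer cells expressing a gene and less RNA per cell cannot be told apart either.

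The group names rest on one of a pair of deposited tables. Both hold the same values in all 16 columns, but 0 of 16 columns carry the same name in both. Under the names of the other table, the columns called poplar here are control, those called switchgrass are cellobiose, those called control are switchgrass and those called cellobiose are poplar. The rule then finds 0 genes, and it finds the same 134 when control and cellobiose are put in the place of the plant groups. Each direction given for a substrate below holds for the names used here. The tables pair no names with the identifiers and 0 of them matched the annotation of 10441 genes of the species, so no role can be given for any of the 134 genes.

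Depth is unknown, since TPM keeps no counts. A listed 0 can be a failed estimate: 19.5% to 42.2% of all genes were listed at 0 in a plant library, 17.4% to 29.5% in a poly-A library other than maltose 3, and 55.3% in maltose 3. Scaling factors by median of ratios were 1.44 to 1.83 in the poly-A libraries other than maltose 3, which had 0.126. They were 0.545, 0.230 and 1.08 in poplar and 0.968, 1.03 and 0.493 in switchgrass, so poplar 2 and switchgrass 3 stood below the other libraries of their groups.

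All 134 genes were among the 23981 tested, which reached at least 1 TPM in at least 3 libraries. The median over the 134 genes was 85.7 TPM for the lowest plant value and 5.33 TPM for the highest value in the 9 others. The lowest plant value reached 100 TPM in 59 genes, 1000 TPM in 21 and 10000 TPM in 6. It was at least 10 times the highest of the 9 others in 85 genes, at least 100 times in 34 and at least 1000 times in 13, counting the 10 genes listed at 0 in all 9. For reference, all 6 plant libraries lay above all 9 others in 2.28% of the tested genes.

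**Figure D1:**
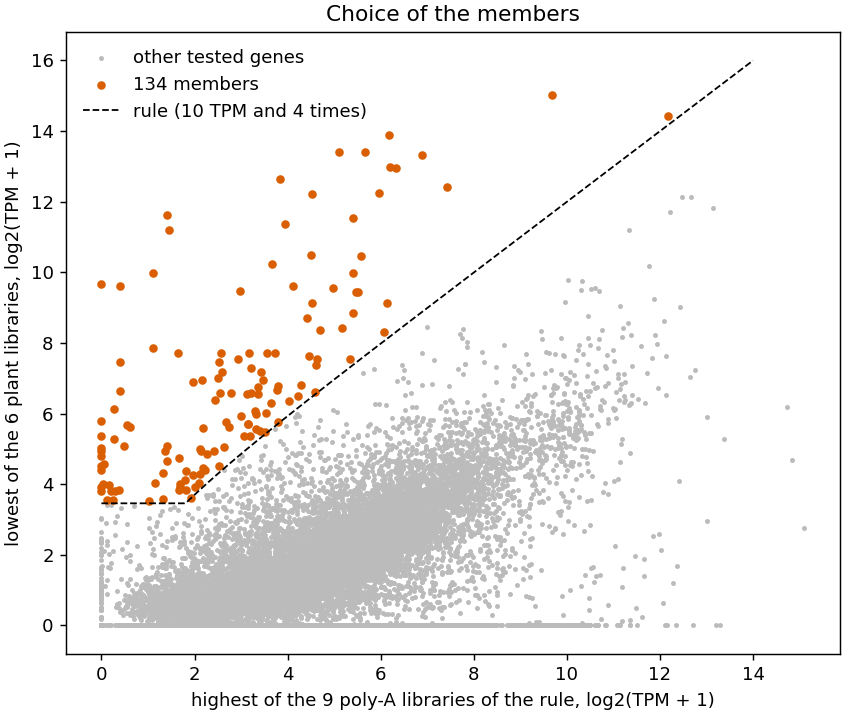
Lowest value over the 6 plant libraries (vertical axis) against the highest value over the 9 poly-A libraries of the rule (horizontal axis), both as log2(TPM + 1), 1 point per tested gene, with the 134 selected genes in orange, the others in grey and the rule as a dashed line. Grey points continue below the line at both thresholds, and 26 of the orange points lie at or below 1 TPM on the horizontal axis.

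The thresholds fell within a continuous range of values. Just inside the 10 TPM limit were TR9834__c0_g1, with a lowest plant value of 10.4 TPM, and TR9347__c2_g1, with 10.8 TPM. Just outside were TR9764__c1_g1 with 9.65 TPM and TR9764__c3_g1 with 9.72 TPM. Just inside the 4-fold limit, TR11628__c0_g1 had 11.3 TPM in its lowest plant library and 2.79 TPM in its highest of the 9 others, a ratio of 4.03, and TR6042__c0_g1 had a ratio of 4.12. TR17704__c0_g1, with a ratio of 3.78, and TR5788__c0_g2, with 3.90, were left out by it.

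The selected genes held a large part of the total TPM of the plant libraries. They made up 56.3%, 65.3% and 37.0% of TPM in poplar 1, 2 and 3 (mean 52.9% ± 14.4, SD, n = 3) and 37.0%, 40.7% and 59.7% in switchgrass 1, 2 and 3 (45.8% ± 12.2, n = 3). In the 10 poly-A libraries, maltose 3 included, the same genes held 0.152% to 0.584%. Between 8 and 10 of the 10 most abundant genes of each plant library were among the 134, and between 30 and 51 of the 100 most abundant. Of the 11 genes that ranked among the top 20 in all 6 plant libraries, 10 were among them.

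A pair of genes held a large and uneven part of these totals, and the other 132 genes differed between plant libraries as well. TR18642__c0_g1 alone held 15.5%, 24.6% and 12.1% of TPM in poplar and 3.35%, 3.39% and 27.3% in switchgrass. TR4031__c0_g1 held 2.19%, 26.1% and 5.36% in poplar and 3.45%, 3.98% and 6.47% in switchgrass. In poplar 2 and switchgrass 3 this pair held more than the other 132 genes together, and in the remaining 4 plant libraries it held less. The other 132 genes held 38.6%, 14.6% and 19.6% in poplar and 30.2%, 33.4% and 25.9% in switchgrass, against 0.0723% to 0.126% in the poly-A libraries other than maltose 3 and 0.00625% in maltose 3. Because TPM is a share of a fixed total, a gene that takes a large part of it lowers every other value in that library.

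**Figure D2:**
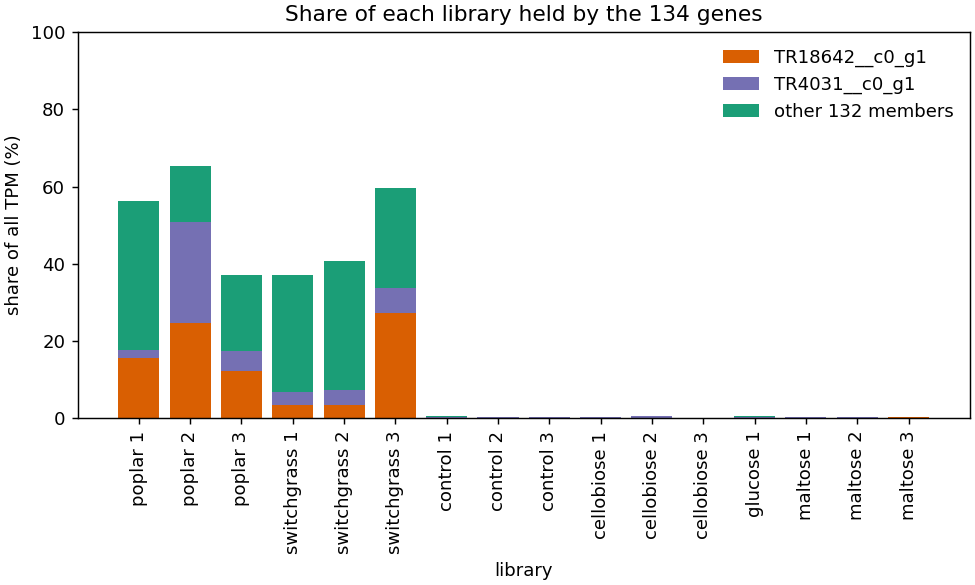
Percent of each library's TPM held by the 134 genes (vertical axis, linear, from 0) in all 16 libraries (horizontal axis), with each bar divided into TR18642__c0_g1, TR4031__c0_g1 and the other 132 genes. The plant bars reach 37.0% to 65.3%, and the poly-A bars stay at or below 0.584%.

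The most abundant of the selected genes was TR18642__c0_g1. It was at 155205, 245672 and 120747 TPM in poplar and at 33531, 33858 and 272584 TPM in switchgrass. It was at 816, 388 and 553 TPM in control, at 724, 129 and 0 TPM in cellobiose, at 0 in glucose and at 0, 120 and 2306 TPM in maltose. The 3 poplar values lay between the 2 low switchgrass values and the high one, and both the cellobiose and the maltose group held libraries listed at 0.

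TR4031__c0_g1 was at 21912, 260793 and 53608 TPM in poplar and at 34513, 39773 and 64740 TPM in switchgrass. It was also the selected gene with the highest values outside the plant groups: 2412, 1481 and 2018 TPM in control, 1247, 4597 and 799 TPM in cellobiose, 3094 TPM in glucose and 1859, 2855 and 450 TPM in maltose. It passed the 4-fold limit by little, with a ratio of 4.77. Poplar 2 was the highest plant library for it and poplar 1 the lowest, and the plant groups overlapped.

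TR5647__c0_g1 and TR8668__c0_g1 stood out by their evenness. TR5647__c0_g1 was at 25897, 15264 and 26137 TPM in poplar and at 21189, 18006 and 19222 TPM in switchgrass. TR8668__c0_g1 was at 10197, 14623 and 11606 TPM in poplar and at 11759, 16651 and 11742 TPM in switchgrass. Their coefficients of variation over the 6 plant libraries were 0.209 and 0.187, the 2 lowest among the 134, followed by 0.263 for TR19096__c0_g1 at a much lower level, 27.9 to 60.9 TPM. In the 9 other libraries of the rule TR5647__c0_g1 ran from 2.12 to 71.7 TPM and TR8668__c0_g1 from 14.6 to 118 TPM, so both were far below their plant values in each.

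TR355__c0_g2 was at 21775, 10938 and 23875 TPM in poplar and at 26723, 32671 and 14383 TPM in switchgrass, and TR18451__c0_g1 at 21146, 10835 and 16441 TPM in poplar and at 46126, 18681 and 12241 TPM in switchgrass. TR7941__c0_g1 was at 12488, 10911 and 18862 TPM in poplar and at 8116, 8156 and 14112 TPM in switchgrass, and TR14863__c0_g1 at 23492, 10285 and 8011 TPM in poplar and at 10142, 42706 and 56167 TPM in switchgrass. For each of these 4 genes the plant groups overlapped. Their lowest plant values were between 101 and 328 times their highest value in the 9 others, where TR14863__c0_g1 had the highest single value, 79.2 TPM in glucose.

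**Figure D3:**
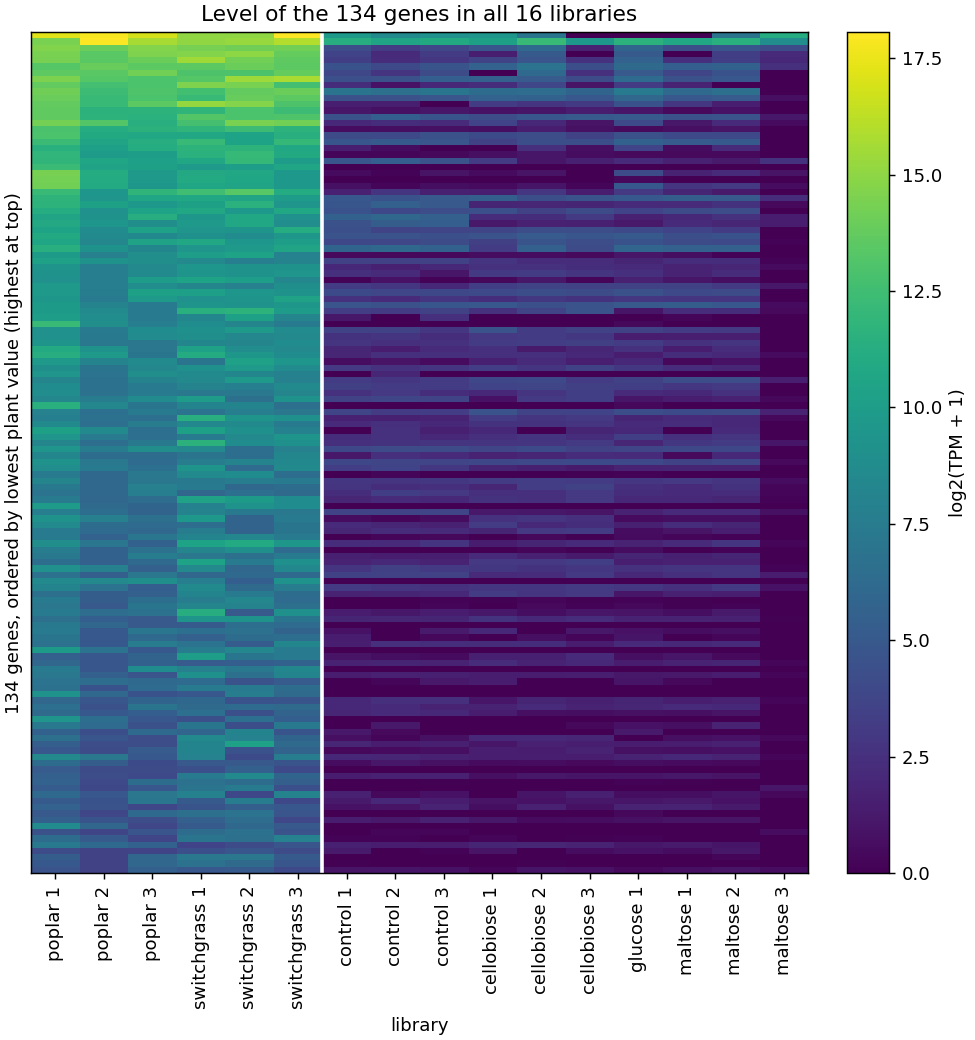
Level of each of the 134 genes (rows, ordered by lowest plant value with the highest at the top) in the 16 libraries (columns), as log2(TPM + 1) on a colour scale from dark (0) to yellow. The 6 plant columns left of the white line are high by the choice of the genes. Maltose 3 is the darkest column, with 81 of the 134 genes listed at 0, beside 55.3% of all genes.

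At the other end, 26 of the 134 genes were at or below 1 TPM in all 9 non-plant libraries of the rule, and 10 of these were listed at 0 in all 9. The median lowest plant value of the 26 genes was 28.3 TPM, below that of the whole group. Among the genes with a measured value outside the plant groups, TR15843__c0_g1 had the largest ratio, 2442. It was at 20184, 2215 and 854 TPM in poplar and at 2109, 1540 and 781 TPM in switchgrass, and its highest value elsewhere was 0.32 TPM, in glucose. TR15410__c0_g1 followed with a ratio of 1894: it was at 12714, 3144 and 3289 TPM in poplar and at 3532, 7713 and 5368 TPM in switchgrass, against 0.39 to 1.66 TPM in the 9 others. Poplar 1 was the highest library for both genes.

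TR14285__c0_g1 had a ratio of 1351, with 7412, 2350 and 3099 TPM in poplar and 3676, 5242 and 3272 TPM in switchgrass. TR18254__c0_g1 had a ratio of 874, with 3732, 1014 and 1125 TPM in poplar and 2937, 4366 and 1964 TPM in switchgrass. In the 9 others neither passed 1.74 TPM. The ratio of 568 for TR314__c0_g1 rested on a single value of 0.04 TPM in cellobiose 2, since it was listed at 0 in the other 8. Its plant values were 111, 22.7 and 80.0 TPM in poplar and 163, 181 and 81.8 TPM in switchgrass.

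Of the genes listed at 0 in all 9, TR557__c0_g1 had the highest median plant value, at 5155, 1326 and 1248 TPM in poplar and at 813, 1130 and 1611 TPM in switchgrass. TR12723__c0_g1 was at 390, 352 and 516 TPM in poplar and at 213, 40.3 and 606 TPM in switchgrass, and TR17914__c0_g1 at 166, 26.9 and 433 TPM in poplar and at 234, 149 and 318 TPM in switchgrass. TR3496__c0_g1 was at 938, 76.3 and 54.7 TPM in poplar and at 248, 622 and 443 TPM in switchgrass, and TR18282__c0_g3 at 901, 114 and 29.7 TPM in poplar and at 190, 328 and 164 TPM in switchgrass. No fold is given for these genes, and the groups of plant libraries overlapped for all 5. Of the 10 genes, 8 were also listed at 0 in maltose 3, where 55.3% of all genes were.

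The plant libraries did not share 1 profile over the 134 genes. The highest plant value was a median of 6.95 times the lowest, from 1.63 times in TR8668__c0_g1 to 76.4 times in TR5426__c0_g1. It was within 4-fold in 25 genes and over 10-fold in 45. Poplar 1 was the highest library for 52 genes, switchgrass 2 for 30, switchgrass 1 for 29, poplar 3 and switchgrass 3 for 11 each and poplar 2 for 1. Poplar 2 was the lowest library for 64 genes and poplar 3 for 33. The median of all tested genes was 2.36, 0.93 and 3.9 TPM in poplar 1, 2 and 3. It was 3.78, 3.8 and 2.31 TPM in switchgrass 1, 2 and 3, so poplar 2 was low for genes in general. How often each library was highest or lowest over all genes was not computed.

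The median TPM of the 134 genes was 465, 117 and 146 in poplar 1, 2 and 3 and 362, 319 and 305 in switchgrass 1, 2 and 3. With TR18642__c0_g1 and TR4031__c0_g1 taken out of the total of each library, these medians were 565, 238 and 177 in poplar and 389, 344 and 461 in switchgrass. Poplar 1 stayed the highest plant library and poplar 3 became the lowest. In the poly-A libraries other than maltose 3 the median was 2.08 to 2.91 TPM.

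In all, 7 genes were at least 4 times higher in poplar 1 than in every other plant library, and they were picked out after their values were seen. They were TR15843__c0_g1, TR15843__c0_g2, TR15843__c0_g3, TR3496__c0_g2, TR18961__c0_g1, TR18282__c0_g1 and TR18435__c0_g1. TR3496__c0_g2 was at 20580, 2369 and 838 TPM in poplar and at 1948, 1771 and 788 TPM in switchgrass, and TR18961__c0_g1 at 18873, 2084 and 753 TPM in poplar and at 1649, 1512 and 808 TPM in switchgrass. Set against TR15843__c0_g1 in the same library, TR3496__c0_g2 was at 0.924 to 1.15 times its level over the 6 plant libraries and TR18961__c0_g1 at 0.782 to 1.03 times. These 3 identifiers from separate assembly components thus kept nearly 1 ratio while each varied 25.1- to 26.1-fold. Outside the plant groups they did not: TR18961__c0_g1 was at 30.5 TPM and TR3496__c0_g2 at 16.3 TPM in glucose, where TR15843__c0_g1 was at 0.32 TPM.

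TR15843__c0_g2 and TR15843__c0_g3 were at 0.127 to 0.179 and 0.191 to 0.245 times TR15843__c0_g1 over the plant libraries, and the 3 TR15843 identifiers had equal values, between 0 and 0.32 TPM, in all 10 poly-A libraries. Identifiers of one component can share sequence and therefore reads. The submitters' processing notes name RSEM without its version. Whether it divided shared reads correctly among these identifiers cannot be seen here, so their separate values are uncertain. Switchgrass 1 was at least 4 times every other plant library for another 5 genes, also picked out after their values were seen: TR1332__c1_g1, TR5426__c0_g1, TR8060__c0_g1, TR13845__c0_g1 and TR17216__c0_g1. Switchgrass 2 was so for 2 genes, poplar 2 for 1 and poplar 3 and switchgrass 3 for 0. For these too the share over all genes was not computed. TR5426__c0_g1 was at 173, 87.8 and 109 TPM in poplar and at 2491, 32.6 and 532 TPM in switchgrass, so its switchgrass values lay on both sides of those in poplar.

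The 134 genes came from 112 assembly components, and 16 components held more than 1, 38 genes in all. Of the 29 pairs within a component, 11 kept a ratio that varied by no more than 2-fold over the 6 plant libraries, and the median pair varied 2.56-fold. The pairs and components named here were picked out after their values were seen, TR4116 and TR9347 included. TR13643__c1_g1 stayed at 0.564 to 0.663 times TR13643__c4_g1. TR355__c0_g1 varied more, from 0.434 to 1.39 times TR355__c0_g2. The 112 components held another 71 genes that were not selected, and 60 of these were tested. All plant libraries lay above the 9 others in 30 of the 60 (50%), beside 2.28% of all tested genes. The 60 were found through genes selected on this same contrast, and genes of a component can share reads. That count is therefore no independent evidence, and the 2.28% is not a like background. At least 10 TPM in every plant library was reached by 8 of the 71, beside 7.88% of all genes.

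The component TR4116 held 25 genes, of which 4 were selected. Another 11 also had all plant libraries above the 9 others, and 22 of the 25 were at or below 1 TPM in all 9. Its summed level was 1418, 406 and 1057 TPM in poplar and 2172, 2448 and 735 TPM in switchgrass, against 22.1 to 43.0 TPM in the poly-A libraries other than maltose 3. In TR9347, 3 of 4 genes were selected, and its summed level was 817, 275 and 1230 TPM in poplar and 1872, 1667 and 446 TPM in switchgrass, against 0.29 to 2.67 TPM. In both components poplar 2 was the lowest plant library and switchgrass 3 the next, and the groups overlapped. These libraries also had the lowest scaling factors of the plant libraries, 0.230 and 0.493, and the sums are not scaled. The order is therefore not shown to be particular to these components.

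Switchgrass was then compared with poplar, a comparison within one preparation that the rule did not use. None of the 134 genes passed the test (limma on log2(TPM + 1), adjusted p under 0.05 over 23981 genes), beside 0.0356% of the 16875 genes that reached 1 TPM in 3 or more plant libraries. At an unadjusted p under 0.05 there were 17 of the 134 genes (12.7%) and 4.46% of those 16875. The smallest adjusted p among the 134 was 0.250. The log2 fold change was positive in 94 genes and negative in 40, with a median of 0.34 against 0.27 over all tested genes. After median-of-ratios scaling, which moved the median of all genes to -0.03, it was positive in 51 and negative in 83, with a median of -0.28, so the balance of directions over the 134 genes flipped with the scaling.

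The 3 switchgrass values all lay above the 3 poplar values in 14 of the 134 genes (10.4%). This was the case for 2.83% of all tested genes and for 3.13% of the 2206 genes with at least 10 TPM in every plant library. All poplar values lay above all switchgrass values in 2 of the 134 (1.49%), beside 1.89% and 0.453%. With median-of-ratios scaling there were 7 genes in the first class (5.22%, beside 3.70% and 6.62%) and 5 in the second (3.73%, beside 4.85% and 4.08%). The share in the first class was thus above the background on the deposited scale only, and within the range of the backgrounds once scaled.

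Among the 14, TR18024__c0_g1 had the largest difference. It was at 44.1, 18.1 and 18.3 TPM in poplar and at 276, 1295 and 76.2 TPM in switchgrass, a limma log2 fold change of 3.57 ± 0.84 (SE, adjusted p = 0.250). TR14046__c1_g1 was at 475, 135 and 48.5 TPM in poplar and at 1402, 2088 and 754 TPM in switchgrass, a log2 fold change of 3.14 ± 0.85 (limma adjusted p = 0.405). Both kept their groups apart after scaling. Neither passed the test with all libraries. TR18024__c0_g1 passed it without switchgrass 3 (limma log2 fold change 4.55, adjusted p = 0.0382), and its value was 2.52 without switchgrass 2 (adjusted p = 0.475). For TR14046__c1_g1 the value was 2.35 without poplar 3 and 3.99 without poplar 1.

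TR8510__c2_g1 was at 167, 60.3 and 85.9 TPM in poplar and at 1335, 918 and 443 TPM in switchgrass, a log2 fold change of 3.08 ± 0.72 (limma adjusted p = 0.250). TR12425__c0_g1 was at 91.9, 46.3 and 71.2 TPM in poplar and at 1431, 185 and 528 TPM in switchgrass, a log2 fold change of 2.93 ± 0.76 (limma adjusted p = 0.368). The first was apart on both scales and the second on the deposited scale alone. The value of TR12425__c0_g1 was 2.20 without switchgrass 1 and 3.67 without switchgrass 2. TR8510__c2_g1 passed the test after scaling (limma adjusted p = 0.022) and when maltose 3 was left out of the fit (adjusted p = 0.0147). That library is in neither group, but the libraries of all groups set the spread together.

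In the other direction, TR11628__c0_g1 was at 155, 70.3 and 48.2 TPM in poplar and at 11.3, 16.4 and 26.1 TPM in switchgrass, a log2 fold change of -2.19 ± 0.64 (limma adjusted p = 0.542). TR5440__c0_g1 was at 1292, 579 and 494 TPM in poplar and at 361, 211 and 271 TPM in switchgrass, a log2 fold change of -1.38 ± 0.74 (limma adjusted p = 1.00). Neither was apart between the groups after scaling.

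**Figure D4:**
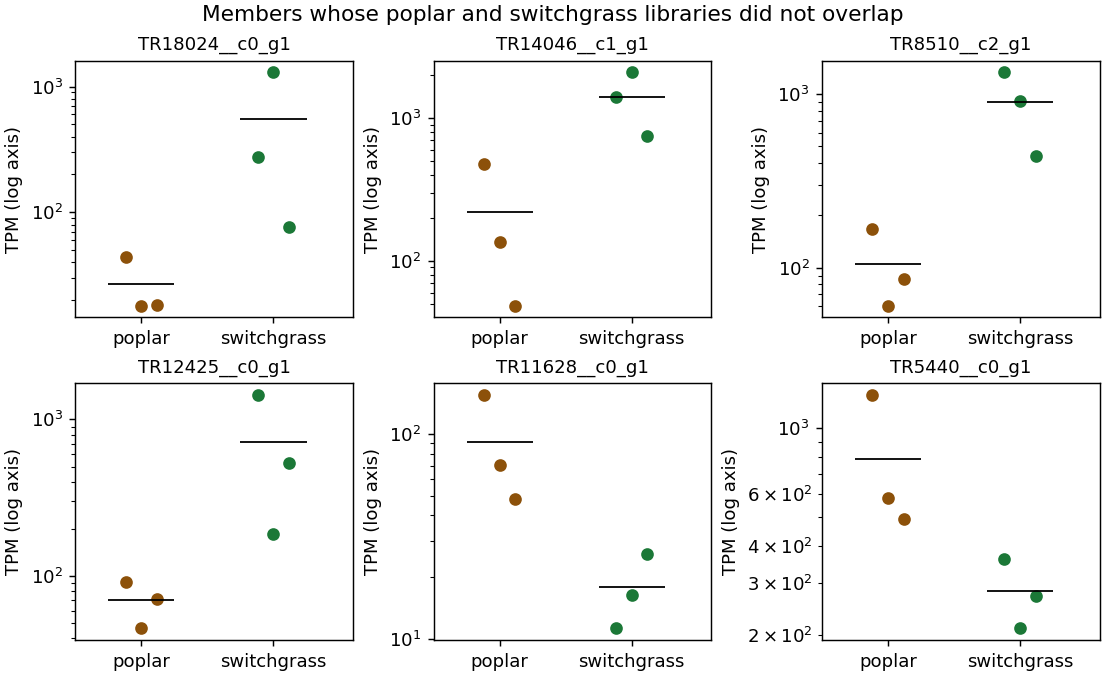
TPM (vertical axis, log scale, set separately in each panel) of 6 selected genes in the 3 poplar and 3 switchgrass libraries (horizontal axis), 1 point per library, with the group mean as a line. Switchgrass points lie above all poplar points in the first 4 panels, and poplar points lie above all switchgrass points in the last 2, TR11628__c0_g1 and TR5440__c0_g1.

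The comparisons within the poly-A preparation asked whether these genes, low as they were there, still differed between the groups without plant material. Many of the 134 were tested only through their plant values, so counts are given here over the genes that reached 1 TPM in 3 or more libraries of the groups compared. In control and cellobiose 91 of the 134 reached this and 43 did not. Cellobiose against control called 1 of the 91 (limma, p adjusted over 23981 genes), beside 0.363% of the 18432 genes that reached it. At an unadjusted p under 0.05 there were 7 (7.69%), beside 6.04%. The 3 cellobiose values lay above the 3 control values in 22 of the 91 (24.2%, beside 19.1%) and below them in 19 (20.9%, beside 19.9%).

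The gene called was TR13643__c1_g1, which was lower in cellobiose. It was at 21.3, 39.7 and 41.3 TPM in control and at 1.34, 2.15 and 1.98 TPM in cellobiose, a log2 fold change of -3.59 ± 0.76 (limma adjusted p = 0.0468). Glucose, at 1.36 TPM, and the maltose libraries, at 3.42, 2.93 and 1.66 TPM, were also below every control library. On plants it was at 1930, 733 and 482 TPM in poplar and at 817, 1689 and 460 TPM in switchgrass. That the plant libraries lay above the rest was fixed by the choice of the gene. The call was lost in 9 of the 14 alternative fits, among them each that left out a control or a cellobiose library.

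Maltose 3 enters the spread that all groups share in the fit. Without it, cellobiose against control called 5 of the 91 genes, all lower, beside 1.7% of the 18432. Beside TR13643__c1_g1 (limma adjusted p = 0.00298) these were TR8062__c0_g1 (adjusted p = 0.00669), TR13643__c4_g1 (adjusted p = 0.00764), TR4153__c0_g1 (adjusted p = 0.00915) and TR8734__c0_g2 (adjusted p = 0.0215). With all 16 libraries the last 4 had adjusted p-values of 0.122, 0.143, 0.162 and 0.201, so they did not pass, and they were named after their values were seen. TR13643__c1_g1 and TR13643__c4_g1 are of the same assembly component and can share reads, so they may not be separate calls.

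TR8062__c0_g1 was at 46.9, 69.0 and 44.4 TPM in control, at 3.95, 4.21 and 7.26 TPM in cellobiose, at 2.23 TPM in glucose and at 3.33, 5.03 and 1.76 TPM in maltose. TR13643__c4_g1 was at 27.3, 44.7 and 32.2 TPM in control, at 2.69, 2.76 and 2.70 TPM in cellobiose, at 3.62 TPM in glucose and at 3.51, 5.13 and 0.40 TPM in maltose. TR8734__c0_g2 was at 27.6, 41.1 and 23.9 TPM in control, at 7.97, 1.09 and 1.98 TPM in cellobiose, at 3.77 TPM in glucose and at 2.20, 1.50 and 5.19 TPM in maltose. In each of these 3 genes the control libraries stood above every sugar library. The genes were picked out by their difference from cellobiose, which used the same 3 control libraries. The rule also capped glucose and maltose 1 and 2. The glucose and maltose values are therefore no independent evidence.

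TR4153__c0_g1 was at 12.2, 11.9 and 13.0 TPM in control, at 1.30, 1.21 and 0.91 TPM in cellobiose, at 2.48 TPM in glucose and at 3.59, 3.48 and 0.72 TPM in maltose. Its plant values, 206, 93.1 and 53.5 TPM in poplar and 264, 155 and 147 TPM in switchgrass, were the lowest of the 5 genes. All 3 controls lay above all 6 sugar libraries of the rule in 14 of the 97 genes that reached 1 TPM in 3 or more of those 9 libraries (14.4%). This was the case for 7.56% of all genes that reached that level and for 18.9% of those with at least 10 TPM in every plant library. The share among the 97 lay between these backgrounds.

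**Figure D5:**
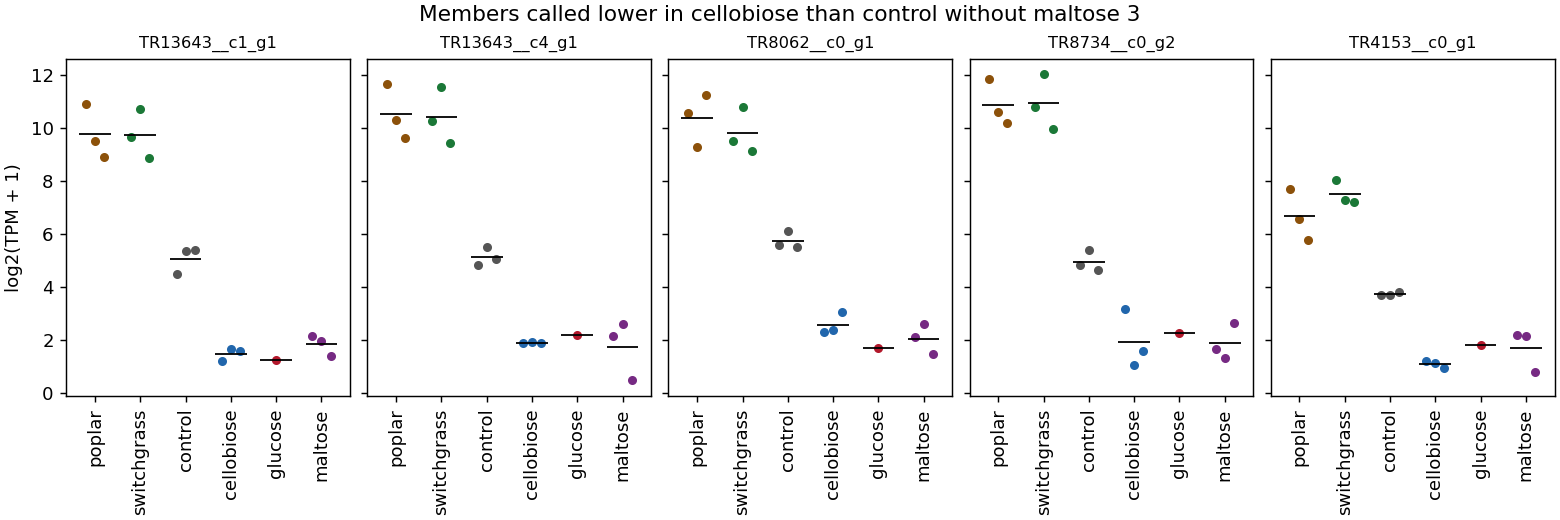
Level as log2(TPM + 1) (vertical axis) of the 5 genes called lower in cellobiose than in control when maltose 3 was left out of the fit, in the 16 libraries by substrate (horizontal axis), 1 point per library, with the group mean as a line. Control points lie above the cellobiose, glucose and maltose points in each of the 5 genes, and the plant points lie highest by the choice of the genes.

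Maltose against control called 0 of the 84 genes that reached the level in these groups (limma), beside 0.00561% of all 17823 that did. At an unadjusted p under 0.05 there were 10 (11.9%), beside 7.93%. Without maltose 3 it called 4 of the 84, all lower and all among the 5 genes above, beside 5.18% of the 17823. These were TR8062__c0_g1 (limma adjusted p = 0.00222), TR8734__c0_g2 (adjusted p = 0.00498), TR13643__c1_g1 (adjusted p = 0.00623) and TR13643__c4_g1 (adjusted p = 0.0157), while TR4153__c0_g1 had an adjusted p of 0.197. The comparisons of cellobiose and of maltose with control share the 3 control libraries. Both TR13643 genes are again of the same component.

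Cellobiose against maltose, which does not use the control libraries, called 0 of the 88 genes that reached the level (limma) both with and without maltose 3, beside 0.65% and 5.48% of all 17839 that did. At an unadjusted p under 0.05 there were 8 with it (9.09%, beside 14.9%) and 6 without it (6.82%, beside 11.4%). The median of all genes lay at 0.65 on the log2 scale in this comparison and at -0.61 in maltose against control. It moved to 0.10 and -0.06 with median-of-ratios scaling.

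All 3 cellobiose libraries lay above the other 6 poly-A libraries of the rule in 17 of the 134 genes. Of the 97 that reached 1 TPM in 3 or more of those 9 libraries there were 16 (16.5%), beside 11.4% of all genes that reached that level and 14.1% of those with at least 10 TPM in every plant library. The levels were low. TR11358__c0_g1, which was picked out by its values, was at 4.94, 5.43 and 4.43 TPM in cellobiose and at 0.16 to 0.61 TPM in the other 6, a log2 fold change of 2.11 ± 0.84 against control (limma adjusted p = 0.702). TR12425__c0_g1 was at 6.91, 6.88 and 9.04 TPM in cellobiose and at 2.51, 2.98 and 2.51 TPM in control. Of these 17 genes and the 14 in which switchgrass lay above poplar, 6 were in both lists, 42.9% of the 14 and 35.3% of the 17. Over all tested genes 128 were in both, 18.9% and 5.29%, and over the genes with at least 10 TPM in every plant library 23 were, 33.3% and 7.42%. With median-of-ratios scaling 3 of the 134 genes were in both lists, 42.9% of 7 and 16.7% of 18. The shares over all tested genes were then 17.8% and 5.75%. They were 16.4% and 6.88% over the genes with at least 10 TPM in every plant library.

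Maltose 3, the poly-A library outside the rule, was low for the selected genes as well. The lowest plant value was at least 4 times its value in 134 of 134 genes, beside 54.5% of the 2206 genes with at least 10 TPM in every plant library, and the smallest ratio was 13.0. Maltose 3 listed 81 of the 134 genes at 0, beside 55.3% of all genes, and 7 of the 134 lay above all 3 controls in it. Among the 7, the 3 TR15843 identifiers and TR3496__c0_g1 were at 0.03 TPM in maltose 3 and at 0 in control. The share of all genes above the controls was not computed. The 3 genes at 10 TPM or more in maltose 3 were TR18642__c0_g1 with 2306 TPM, TR4031__c0_g1 with 450 TPM and TR5647__c0_g1 with 16.9 TPM, which are also the 3 most abundant by lowest plant value. Since the genes were chosen for low levels in the other poly-A libraries, this count is no independent evidence about the substrate.

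Most of the selected genes had 1 listed transcript. This counts what the assembly listed, and 38 of the 134 genes shared a component with another of them. A single transcript was listed for 119 of the 134 genes (88.8%), beside 78.3% of all genes and 76.7% of those with at least 10 TPM in every plant library. The other 15 genes had 43 transcripts, of which 40 were tested. Switchgrass against poplar called 0 of the 40 (limma), beside 0.0286% of all 34988 transcripts tested, and 8 (20%) had an unadjusted p under 0.05, beside 4.9% of all. In TR18642__c0_g1 the leading transcript held 64.0% of the gene in poplar 1 and 100% in the other 5 plant libraries. In TR4116__c10_g1 it held 54.7%, 52.8% and 51.2% in poplar and 57.6%, 72.5% and 61.7% in switchgrass, and in TR10284__c1_g1 53.6%, 56.3% and 49.5% in poplar and 47.8%, 45.0% and 38.1% in switchgrass. The groups did not overlap in the last 2 genes, which were named for their large changes. In all, the share did not overlap in 4 of the 15 genes (26.7%), beside 11.1% of the 513 genes with several transcripts and at least 10 TPM in every plant library. The groups overlapped in TR9347__c0_g1, with means of 74.9% ± 9.62 and 82.3% ± 8.72 (SD, n = 3 each).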

How the data were processed

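The deposited tables hold TPM values of 45286 assembled transcripts in 16 libraries. The table used here is named for expected counts, but each of its columns sums to 1000000 within 0.87, so it was treated as TPM made by the authors. The submitters' processing notes name RSEM. Its version, the assembler and the filters are not given in these sources, and without counts no count test was run. Isoforms were summed to 27990 genes, and limma 3.58.1 under R 4.3.3 tested the 23981 that reached 1 TPM in 3 or more libraries, on log2(TPM + 1) and with a trend of variance on level. This scale understates changes of low genes. All 16 libraries entered as 6 group means. P-values were adjusted by Benjamini-Hochberg over all genes tested, with calls at an adjusted p under 0.05. The lone glucose library was assumed to vary like the other groups. With 3 libraries against 3 an exact test of 1 gene cannot give a p below 0.1, so none was run. The test was tried on simulated data first.

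The members, the comparisons and the lists were chosen with earlier results of these data known. Genes were named by rule: the 8 highest by lowest plant value, the 5 largest ratios, the 5 with the highest median plant value among those listed at 0 in the 9 non-plant libraries of the rule, called members, the largest non-overlapping differences between plants (at most 4 each way), the 3 most even, the 3 highest in maltose 3, those nearest the thresholds and the 4 largest changes of leading transcript share. Others are marked as chosen after their values were seen. Alternatives were another pseudocount, other filters and thresholds, median-of-ratios scaling, fits of 2 groups, the replicate number as a block, transcripts, the other table's names and each library of the groups compared left out in turn (for the number of members, each library of the rule). Scaling without maltose 3, the rule without glucose 1 and TPM re-expressed without the 2 most abundant members were added after seeing the data.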

Additional observations from a re-analysis of the deposited data

How the results depend on the processing

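The list of 134 genes became 289 genes with median-of-ratios scaling, which kept all 134, and 0 under the other table's column names. Other thresholds, transcripts in place of genes and TPM without the 2 most abundant members gave 94 to 181, and leaving out each library of the rule in turn gave 134 to 186, with 170 without poplar 2 and 186 without switchgrass 2.

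For switchgrass against poplar, 0 members were called in limma's fit to all libraries (0.025% of all genes). There was 1 with scaling (0.459%), 1 without maltose 3 (0.108%, and 1.13% with scaling too) and 5 under the other names (1.42%). When each library of the 2 groups was left out there were 0 to 1, with the 1 without switchgrass 3 (0.117%). For cellobiose against control the 1 call (0.279% of all genes) became 0 with a pseudocount of 0.1 (0.0375%) and 2 with scaling (0.742%). It became 3 under the other names (0.179%), 4 with scaling and without maltose 3 (2.26%), and 5 without maltose 3 (1.31%). A fit to the 2 groups alone called 16 of the 91 members it could test (17.3% of all genes), and 9 of the 91 with the replicate number as a block (10.1% of all). In the fit to all groups, leaving out each cellobiose or control library in turn gave 0 (0.0917% to 0.15% of all genes). For maltose against control the 0 became 3 with scaling and without maltose 3 (4.18% of all genes) and 134 under the other names (38.4%). It was 0 to 4 when each library was left out, with the 4 without maltose 3 (3.95%). Cellobiose against maltose went from 0 to 134 under the other names (33.0% of all genes) and stayed at 0 in the other fits. The maltose columns under those names are called glucose 1, maltose 1 and maltose 2 here. Both comparisons under those names thus set plant columns against poly-A columns, as the rule did, so the 134 follow from the choice of genes. Under those names TR8510__c2_g1 was at -0.65, TR12425__c0_g1 at -1.22 and TR5440__c0_g1 at 1.04 in switchgrass minus poplar, and TR4153__c0_g1 at 0.84 and TR8734__c0_g2 at 0.06 in cellobiose minus control, all on the log2 scale.

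Replicate numbers did not pair the libraries: deviations of same-numbered libraries correlated at -0.19 to 0.071. The replicate block changed no other count of members called. The causes of these changes were not tested. Unknown depth limits what can be read from low values and from a listed 0.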
